A study of Homo sapiens with 9 samples.

Results

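A set of 9 genes of immature thymocytes were followed through activation of Jurkat T cells: RAG1 (ENSG00000166349.10), RAG2 (ENSG00000175097.8), DNTT (ENSG00000107447.8), PTCRA (ENSG00000171611.10), CD1A (ENSG00000158477.7), CD1B (ENSG00000158485.11), CD1C (ENSG00000158481.13), CD1D (ENSG00000158473.8) and CD1E (ENSG00000158488.16). They were selected by gene ID as genes that mark immature thymocytes, with footprint values of these same libraries known, among them the low RAG2 values after activation. Their levels and changes are therefore given as a description. Where a member is said to be called, it passed the call rule applied to all IDs, which is no independent evidence about a member, and no member's p is given. All 9 were found among the 19569 gene IDs of the count table, and all 9 were among the 13920 IDs that passed the low-count filter.

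The study profiled ribosome footprints, the short mRNA pieces that translating ribosomes protect, in Jurkat E6-1, which is 1 clone of a human leukaemic T cell line. Resting cells, which received no activating antibody, were compared with cells stimulated for 5 h and for 12 h with anti-CD3 antibody fixed to the plate from a 10 µg/mL solution and anti-CD28 antibody at 5 µg/mL in the medium. Each group had 3 libraries, called biological replicates in the design text. The shallowest library was 12 h replicate 2 with 4343515 counts and the deepest 5 h replicate 3 with 18506509, while resting libraries held 9239287 to 10171929. Levels are given as CPM, counts per 1000000 of the TMM-scaled library. The files pair no gene IDs with names, so T cell, B cell and myeloid markers outside the 9 genes were not looked up.

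In the thymus, developing T cells assemble their receptor genes by V(D)J recombination, in which the RAG1 and RAG2 proteins together cut the DNA. DNTT, the terminal deoxynucleotidyl transferase, adds untemplated nucleotides at the joints. PTCRA, the pre-T cell receptor alpha chain, pairs with a newly made beta chain before the alpha locus is rearranged. The CD1 proteins resemble MHC class I molecules but carry lipids, and cortical thymocytes display several of them. Signals through the mature receptor are known to end RAG expression as thymocytes are positively selected. T cell leukaemia lines, Jurkat among them, often keep genes of such immature stages.

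The start regions of RAG1, RAG2, DNTT and PTCRA, the 4 genes called lower at 12 h versus resting, and of CD1C, the 1 called higher, are shown so that they can be set side by side. They are the RefSeq windows from 250 bases before to 50 bases after the annotated start (GRCh38.p14), 5′ to 3′ on the gene's strand. Which start the Jurkat cells used was not examined, so a window, that of RAG1 included, need not be the promoter active in them. Capitals mark CAGCTG and CAGGTG on either strand, the E-boxes that E proteins favour. E proteins are transcription factors known to act on RAG, PTCRA and DNTT.
RAG1, chr11:36510103-36510402, plus strand: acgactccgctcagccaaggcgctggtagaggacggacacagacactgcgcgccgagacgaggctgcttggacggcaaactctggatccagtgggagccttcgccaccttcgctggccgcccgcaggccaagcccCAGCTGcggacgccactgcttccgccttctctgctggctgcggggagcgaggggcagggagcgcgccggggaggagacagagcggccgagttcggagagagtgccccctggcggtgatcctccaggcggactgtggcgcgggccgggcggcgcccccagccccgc
RAG2, chr11:36598187-36598486, minus strand: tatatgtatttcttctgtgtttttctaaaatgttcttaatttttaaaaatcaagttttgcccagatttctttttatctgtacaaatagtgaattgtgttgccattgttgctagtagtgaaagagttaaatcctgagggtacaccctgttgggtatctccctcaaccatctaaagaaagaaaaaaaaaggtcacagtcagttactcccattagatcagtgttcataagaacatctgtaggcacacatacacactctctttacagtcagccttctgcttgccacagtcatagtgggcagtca
DNTT, chr10:96304184-96304483, plus strand: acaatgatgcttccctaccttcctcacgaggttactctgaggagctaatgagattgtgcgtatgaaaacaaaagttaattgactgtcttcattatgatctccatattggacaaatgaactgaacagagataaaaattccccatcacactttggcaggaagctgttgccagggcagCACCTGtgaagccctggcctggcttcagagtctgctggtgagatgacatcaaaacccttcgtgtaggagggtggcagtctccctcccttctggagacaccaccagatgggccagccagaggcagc
PTCRA, chr6:42915803-42916102, plus strand: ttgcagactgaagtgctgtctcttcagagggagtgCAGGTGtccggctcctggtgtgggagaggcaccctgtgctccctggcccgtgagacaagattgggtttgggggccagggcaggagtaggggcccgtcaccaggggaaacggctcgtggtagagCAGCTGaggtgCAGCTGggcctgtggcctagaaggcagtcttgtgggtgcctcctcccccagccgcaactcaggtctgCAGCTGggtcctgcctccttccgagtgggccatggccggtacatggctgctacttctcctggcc
CD1C, chr1:158289673-158289972, plus strand: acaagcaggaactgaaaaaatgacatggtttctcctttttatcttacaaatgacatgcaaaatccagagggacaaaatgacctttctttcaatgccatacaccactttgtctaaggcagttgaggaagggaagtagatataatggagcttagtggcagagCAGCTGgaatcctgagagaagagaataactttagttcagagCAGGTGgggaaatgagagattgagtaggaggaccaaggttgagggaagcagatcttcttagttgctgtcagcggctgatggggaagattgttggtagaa

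The PTCRA window held 4 such E-boxes, that of CD1C 2, those of DNTT and RAG1 1 each, and those of RAG2, CD1A, CD1D and CD1E none, while 34.5% of all 35116 RefSeq windows of this length held at least 1. RefSeq gives CD1A and CD1D 2 windows each, and all 4 were counted. The wider pattern CANNTG, which includes both, occurred in all 5 printed windows, in both of CD1A and in 1 of CD1D, and in 68.7% of all windows. AGATAA on either strand, known as the core of GATA factor sites, occurred once each in the RAG2, DNTT and CD1C windows and in 1 of the CD1A windows, against 10.3% of all windows. GGAAA, the core that NFAT factors recognise, occurred in the windows of PTCRA, CD1A, CD1C, CD1D and CD1E, 1 to 3 times each, and in none of RAG1, RAG2 and DNTT, against 61.2% of all. These matches describe the letters and not the binding of a factor. The RefSeq table held windows for 8 of the 9 genes, and CD1B was the exception.

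RAG1 and RAG2, the subunits of the recombinase, were far lower in activated cells. RAG1 stood at 17.2, 17.3 and 15.1 CPM in the resting libraries, at 1.41, 3.07 and 3.69 CPM at 5 h and at 1.46, 4.82 and 3.63 CPM at 12 h. Every activated library lay below every resting one, and the 2 activated groups overlapped. The log2 fold change of RAG1 was -2.56 ± 0.36 (SE of the edgeR fit, n = 3 each) at 5 h versus resting and -2.42 ± 0.37 at 12 h versus resting, and the difference at 12 h versus 5 h was 0.14 ± 0.39. Of the 13920 IDs, 14 had a lower fold change at 5 h and 25 at 12 h. In bulk libraries, fewer cells with footprints of a gene and fewer footprints per cell cannot be told apart, and mRNA levels were not used here, so less mRNA and less translation of it were not separated.

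RAG2 had 14.7, 12.97 and 16.4 CPM at rest, 1.41, 3.07 and 0.977 CPM at 5 h and 1.03, 1.09 and 1.08 CPM at 12 h. Again no activated library reached a resting one. The log2 fold change was -3.01 ± 0.37 (SE) at 5 h versus resting and -3.78 ± 0.42 at 12 h versus resting. At 12 h only 2 of the 13920 IDs had a lower value, and at 5 h 7 had. RAG2 at 12 h was thus at 7.26% of its resting mean, and RAG1 at 20% of its own. At 12 h versus 5 h the log2 fold change of RAG2 was -0.76 ± 0.45 (SE), the groups overlapped and RAG2 was not called. The 5 h value of RAG2 rests partly on replicate 2. Without that library the log2 fold change was -3.65 at 5 h versus resting and -0.14 at 12 h versus 5 h.

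These values come from few footprints once the cells were activated. RAG1 had 14 to 68 counts per 5 h library and 17 to 27 per 12 h library, against 146 to 157 at rest, and RAG2 had 14 to 41 and 5 to 12, against 118 to 158. The exact 95% Poisson interval of RAG2 in 12 h replicate 2, with 5 counts, ran from 0.355 to 2.55 CPM. Its upper end lay below the lowest resting RAG2 interval, which began at 10.7 CPM. The RAG1 intervals of 12 h replicates 1 and 2 did not overlap, as that of replicate 1 ended at 2.33 CPM and that of replicate 2 began at 3.02 CPM. These intervals hold Poisson counting error alone, and they would be too narrow if PCR copies of 1 fragment were counted as separate fragments.

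**Figure D1:**
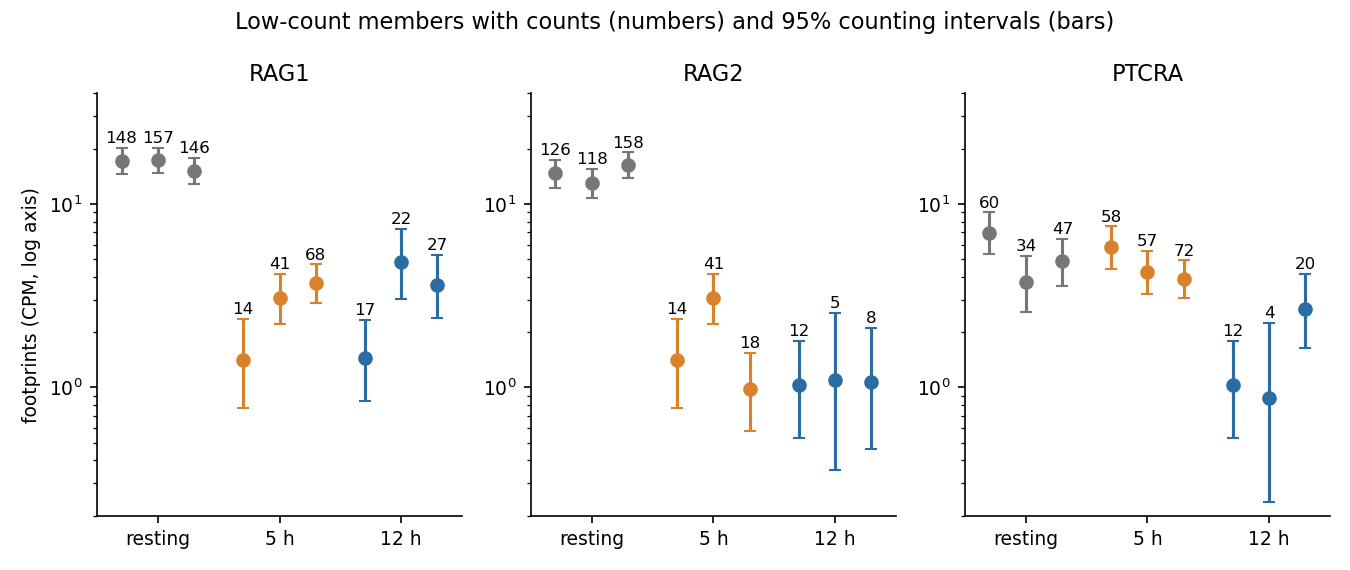
Footprints of RAG1, RAG2 and PTCRA in each library, in CPM on a log axis, by group (resting, 5 h, 12 h; 3 libraries each). Points are libraries, the numbers are their counts and the bars exact 95% Poisson intervals. The activated RAG1 and RAG2 libraries all lie below 5 CPM, with 5 to 68 counts each, and the resting ones lie above 12 CPM.

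RAG1 and RAG2 sit next to each other in the genome and at rest RAG2 made up 46.0%, 42.9% and 52.0% of their summed counts. After activation the RAG2 share was 50%, 50% and 20.9% at 5 h and 41.4%, 18.5% and 22.9% at 12 h. The 12 h shares all lay below the resting ones, but with 27 to 35 summed counts per library they were imprecise: the exact 95% binomial interval in 12 h replicate 1 ran from 23.5% to 61.1%. RAG1 and RAG2 had the same counts, 14 and 41, in 5 h replicates 1 and 2 and different counts, 68 and 18, in 5 h replicate 3. In RefSeq (GRCh38.p14) the RAG2 span overlaps that of IFTAP, and whether the counting used strand is not stated in the sources at hand, so fragments of IFTAP could enter the RAG2 count.

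DNTT, which diversifies the joints that RAG1 and RAG2 open, was lower in steps. It had 338, 360 and 312 CPM at rest, 195, 226 and 225 CPM at 5 h and 80.6, 72.7 and 74.6 CPM at 12 h. No library of one group overlapped those of another, and the order was resting above 5 h above 12 h. Its mean was 215 ± 17.4 CPM at 5 h (SD, n = 3), 63.9% of the resting mean of 337 ± 24.3 CPM, and 76.0 ± 4.14 CPM at 12 h, 22.6% of it. On the log2 scale the fold change was -0.64 ± 0.09 (SE) at 5 h versus resting, -2.14 ± 0.10 at 12 h versus resting and -1.50 ± 0.10 at 12 h versus 5 h. DNTT was counted deeply, with 332 to 942 counts per library at 12 h and 2899 to 3279 at rest.

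PTCRA had few counts, and its difference appeared at 12 h. It had 60, 34 and 47 counts at rest (6.99, 3.74 and 4.87 CPM), 58, 57 and 72 at 5 h (5.85, 4.27 and 3.91 CPM) and 12, 4 and 20 at 12 h (1.03, 0.876 and 2.69 CPM). The 5 h libraries overlapped the resting ones, and the 12 h libraries lay below both. Its log2 fold change was -0.16 ± 0.42 (SE) at 5 h versus resting, -1.74 ± 0.47 at 12 h versus resting and -1.58 ± 0.47 at 12 h versus 5 h. Single 12 h libraries moved these values: at 12 h versus resting the change was -2.42 without 12 h replicate 3. At 12 h versus 5 h it was -2.25 without replicate 3, -1.30 without replicate 1 and -1.37 without replicate 2, and PTCRA was no longer called at 12 h versus 5 h in the last 2 cases.

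**Figure D2:**
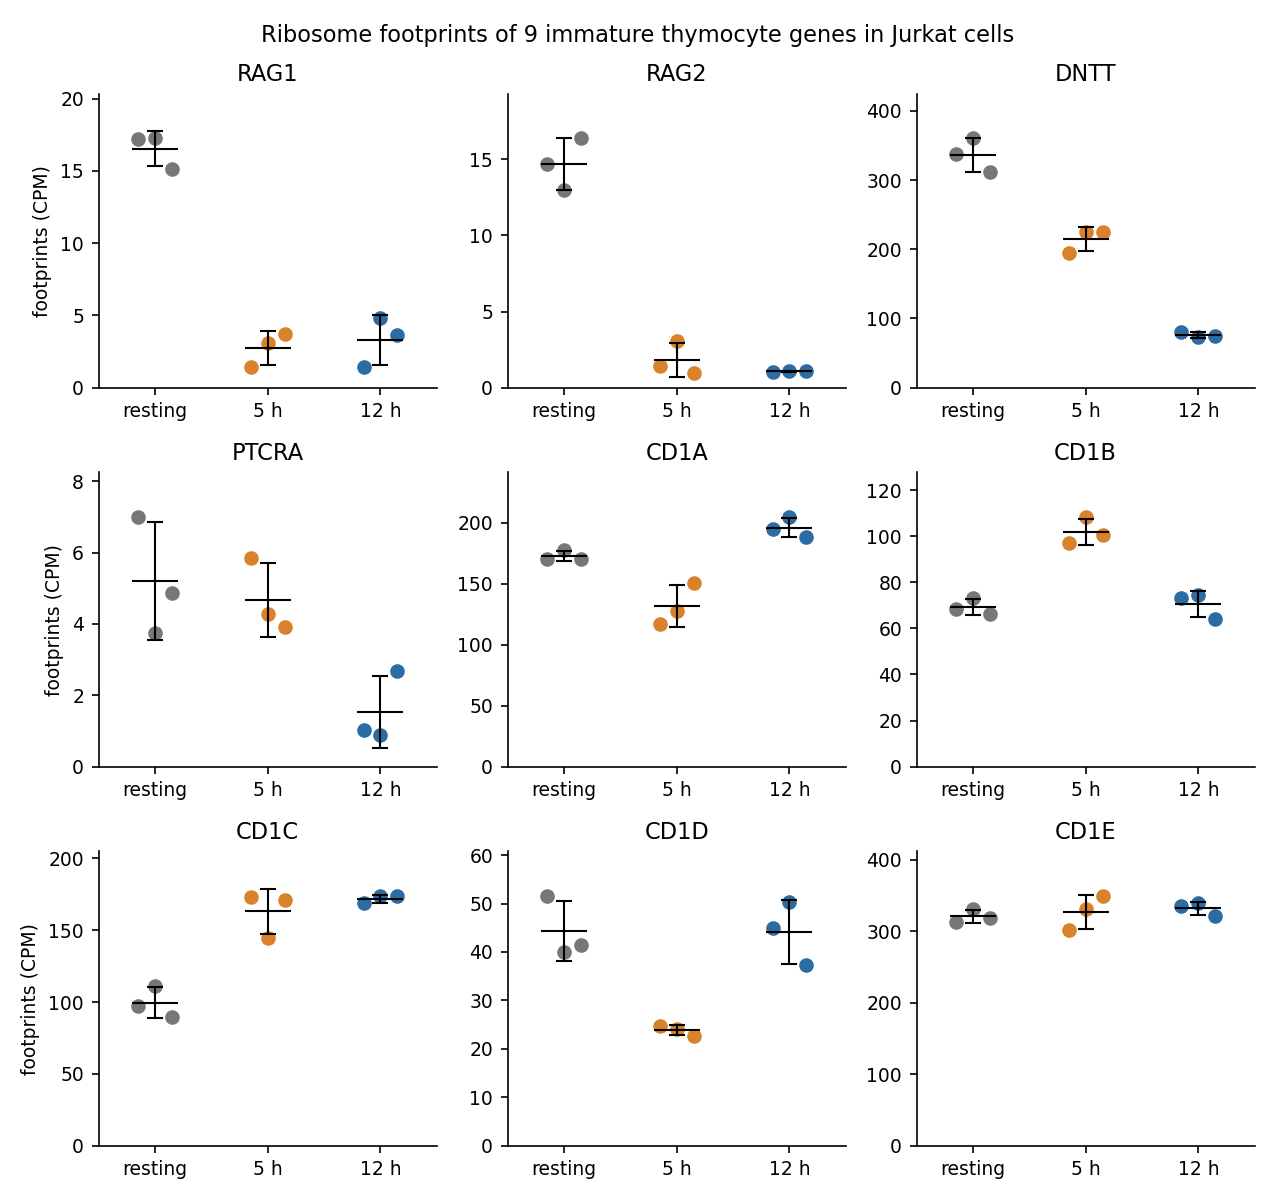
Footprints of each of the 9 genes in CPM (vertical axes start at 0 and differ between panels) in resting, 5 h and 12 h cells. Points are libraries, and the bars give mean ± SD of 3 libraries. RAG1 and RAG2 are low at both times, DNTT is lower at 12 h than at 5 h, PTCRA is low at 12 h, and the CD1 genes differ in course, with CD1A and CD1D both lowest at 5 h.

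The 5 CD1 genes lie together on chromosome 1, with no other protein-coding gene of RefSeq between the first and the last, yet they did not move together. CD1C, a lipid-presenting molecule also found on some dendritic cells, was higher at both times: 97.4, 111 and 89.8 CPM at rest, 173, 145 and 171 CPM at 5 h and 169, 174 and 174 CPM at 12 h. Neither activated group overlapped the resting libraries. CD1C had a log2 fold change of 0.71 ± 0.10 (SE) at 5 h versus resting, 0.79 ± 0.10 at 12 h versus resting and 0.08 ± 0.10 at 12 h versus 5 h.

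CD1B, which binds long-chain mycobacterial lipids, was higher at 5 h alone. Its libraries held 68.2, 73.1 and 66.4 CPM at rest, 97.0, 108 and 101 CPM at 5 h and 73.3, 74.4 and 64.1 CPM at 12 h. The 5 h libraries stood above all others, while 12 h and resting libraries overlapped. CD1B had a log2 fold change of 0.56 ± 0.11 (SE) at 5 h versus resting, 0.03 ± 0.11 at 12 h versus resting and -0.53 ± 0.11 at 12 h versus 5 h. In RefSeq the spans of CD1B and CD1C overlap, so without known strand handling fragments of one could be counted for the other. Both were higher at 5 h, and at 12 h CD1C stood at 173% of its resting mean and CD1B at 102%. Whether shared fragments enter these values was not tested.

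CD1D, which presents lipids to natural killer T cells, had the opposite course to CD1B. It had 51.5, 40.01 and 41.4 CPM at rest, 24.7, 24.1 and 22.7 CPM at 5 h and 45.0, 50.4 and 37.2 CPM at 12 h. The 5 h libraries lay below all others, at 53.8% of the resting mean, and the 12 h libraries overlapped the resting ones. CD1D had a log2 fold change of -0.90 ± 0.15 (SE) at 5 h versus resting, -0.01 ± 0.15 at 12 h versus resting and 0.89 ± 0.15 at 12 h versus 5 h.

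CD1A, the classical marker of cortical thymocytes, dipped less at 5 h and stood slightly above rest at 12 h. It had 171, 178 and 170 CPM at rest, 117, 128 and 151 CPM at 5 h and 195, 204 and 189 CPM at 12 h. All 3 groups were free of overlap, in the order 12 h above resting above 5 h. The log2 fold change was -0.39 ± 0.10 (SE) at 5 h versus resting and 0.18 ± 0.10 at 12 h versus resting, where CD1A was not called, and 0.57 ± 0.10 at 12 h versus 5 h. Without 5 h replicate 3, the highest of that group, the change at 5 h versus resting was -0.53. CD1E, a soluble helper that hands lipids to other CD1 molecules inside the cell, was flat: 313 to 331 CPM at rest, 302 to 349 CPM at 5 h and 321 to 339 CPM at 12 h. Its groups overlapped at every comparison, with log2 fold changes of 0.03 ± 0.08 (SE) at 5 h versus resting and 0.05 ± 0.08 at 12 h versus resting.

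**Figure D3:**
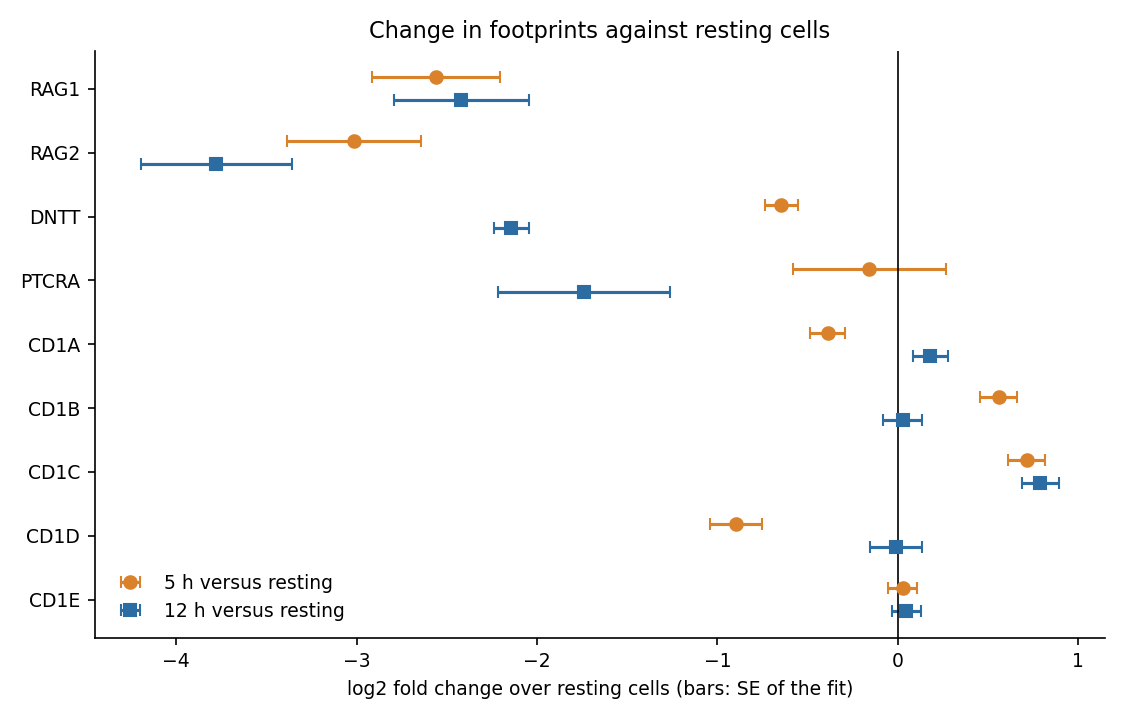
Log2 fold changes of the 9 genes over resting cells at 5 h (circles) and 12 h (squares), with the SE of the edgeR fit as bars; both share the 3 resting libraries. RAG1, RAG2 and DNTT lie left of 0 at both times, from -0.64 to -3.78, while the CD1 genes lie between -0.90 and 0.79.

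RAG1, RAG2, DNTT and PTCRA had the largest log2 fold changes of the 9 genes at 12 h versus resting. At 5 h versus resting, 5 of 9 (RAG1, RAG2, DNTT, CD1A and CD1D) were called lower by the edgeR quasi-likelihood test at an adjusted p under 0.05, as were 18.4% of all IDs tested. CD1B and CD1C, 2 of 9, were called higher, as were 16.0% of all IDs. Groups without overlap were found for 7 of 9 members and for 45.7% of all IDs. Because the members were chosen with these values in view, nothing is read from the counts. The median log2 fold change was -0.39 over the 9 members, against 0.07 over all tested IDs.

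At 12 h versus resting, RAG1, RAG2, DNTT and PTCRA, 4 of 9, were called lower, against 19.3% of all IDs. Only CD1C was called higher, against 15.8% of all IDs. No overlap was seen for 6 of 9 members and for 45.8% of all IDs. The members' median log2 fold change was -0.01 and that of all IDs 0.04. In the direct comparison of 12 h with 5 h, DNTT, PTCRA and CD1B, 3 of 9, were called lower, against 13.5% of all IDs. CD1A and CD1D, 2 of 9, were called higher, against 11.6% of all IDs, and 5 of 9 did not overlap, against 39.1%. These 3 comparisons share libraries with one another and are not independent.

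The 9 genes followed 7 courses, a course being the direction called in each of the 3 comparisons. RAG1 and RAG2 shared theirs, lower at both times and not called at 12 h versus 5 h, with 7.49% of all tested IDs. The stepwise course of DNTT, lower at each comparison, was that of 2.26% of IDs. CD1A and CD1D shared a dip at 5 h that had ended by 12 h with 4.15%, and the mirror course of CD1B was found for 2.96%. PTCRA had the late course of 4.58% of IDs and CD1C the lasting high course of 6.52%. CD1E, called in none, was among 48.7% of IDs.

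Ratios within a library do not depend on how libraries are scaled. Here RAG1 with RAG2, DNTT and PTCRA were each set against the summed CD1 footprints. That sum hides differences among the CD1 genes, as CD1E made up 45.4% of it at rest. At 5 h CD1D, at 53.8% of its resting mean, was lower relative to rest than DNTT, at 63.9%. The summed CD1 footprints were 701, 733 and 686 CPM at rest, 714, 735 and 794 CPM at 5 h and 817, 842 and 784 CPM at 12 h. Per 1000 CD1 footprints there were 45.5, 41.2 and 45.9 RAG1 and RAG2 footprints at rest, 3.95, 8.36 and 5.88 at 5 h and 3.04, 7.02 and 6.00 at 12 h. Per 100 CD1 footprints DNTT had 47.6 ± 1.90 footprints in resting cells (SD, n = 3), 28.8 ± 1.74 in 5 h cells and 9.34 ± 0.632 in 12 h cells. PTCRA gave 9.97, 5.10 and 7.10 per 1000 CD1 footprints at rest, 8.19, 5.81 and 4.93 at 5 h and 1.26, 1.04 and 3.43 at 12 h. The RAG and DNTT ratios at both times and the PTCRA ratios at 12 h lay below their resting ranges in every library. These ratios reuse the counts of the chosen members, so they are no separate evidence. The summed CD1 footprints were themselves higher at 12 h than at rest, which lowers every 12 h ratio.

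**Figure D4:**
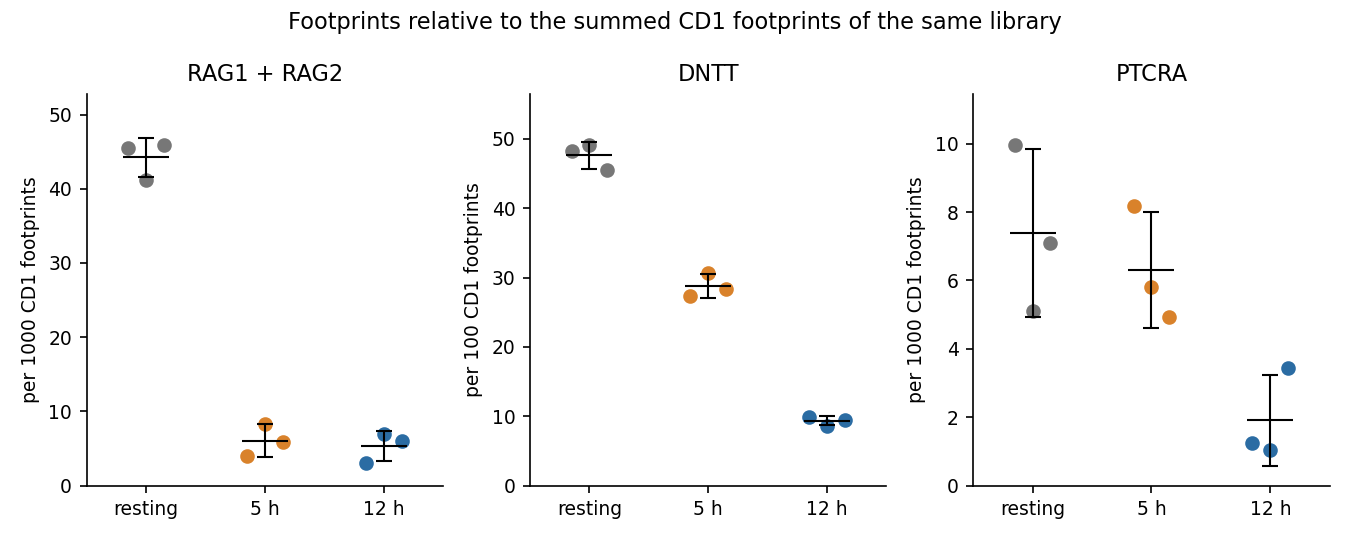
Footprints of RAG1 and RAG2 together, of DNTT and of PTCRA, each divided by the summed CD1 footprints of the same library, in resting, 5 h and 12 h cells; points are libraries and bars mean ± SD of 3. RAG footprints are at 3.04 to 8.36 per 1000 in activated libraries and at 41.2 to 45.9 at rest, and DNTT steps down through 28.8 to 9.34 per 100.

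The make-up of the CD1 footprints also differed with time. A gene's share follows its coding length as well as its level, so shares are compared only across libraries, not between genes. CD1C took 14.05% ± 1.03 of CD1 counts in resting cells (SD, n = 3), 21.9% ± 2.31 in 5 h cells and 21.1% ± 0.863 in 12 h cells. CD1B took 9.80% ± 0.149, 13.7% ± 1.02 and 8.66% ± 0.425 at the same times. CD1A was at 24.5% ± 0.286 at rest, 17.6% ± 1.30 at 5 h and 24.1% ± 0.245 at 12 h. CD1D was at 6.28% ± 0.967, 3.197% ± 0.307 and 5.41% ± 0.623 in the same order. CD1E took 45.4% ± 0.875 at rest, 43.7% ± 1.37 at 5 h and 40.7% ± 0.435 at 12 h, and its 12 h shares lay below all others although its CPM were flat, as the summed CD1 footprints were higher. CD1 genes resemble one another, so short footprints that match several of them could be shared by the counting, by a rule that the sources do not state.

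**Figure D5:**
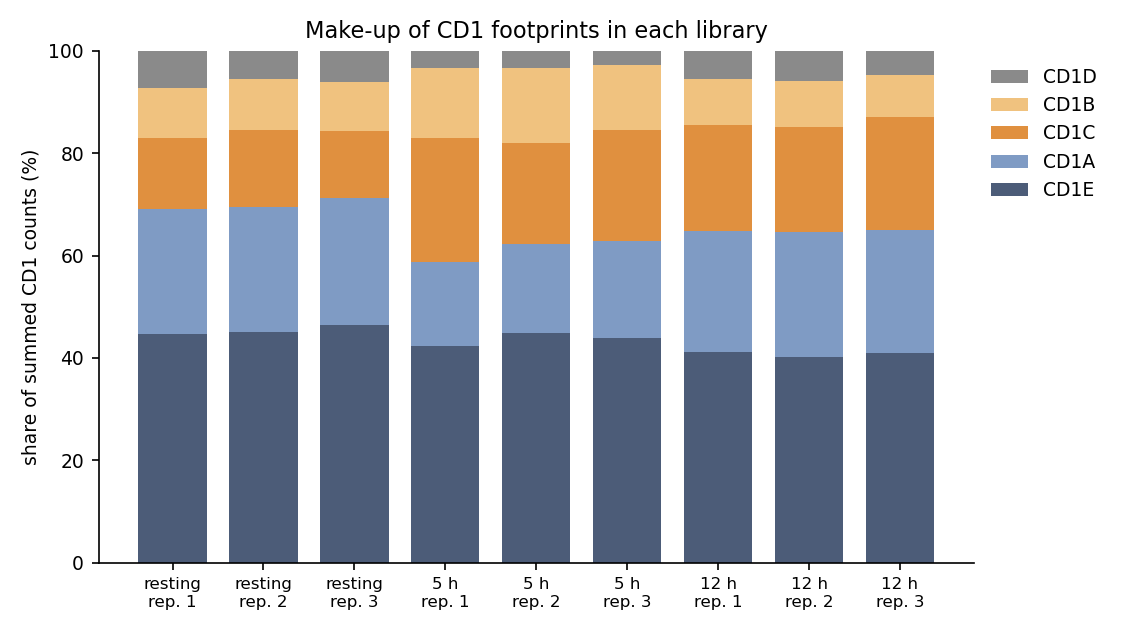
Share of each CD1 gene in the summed CD1 counts (%) of each of the 9 libraries, as stacked bars. CD1C and CD1B are wider and CD1A and CD1D narrower at 5 h than in resting libraries, and at 12 h CD1A is back at 24.1% while CD1C keeps 21.1%.

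Among the 9 genes themselves, likeness was measured as the root mean square difference of log2 CPM profiles over the 9 libraries, each centred on its own mean. RAG1 and RAG2 were each other's nearest, at 0.78, as were DNTT and PTCRA, at 0.53, and CD1A and CD1E, at 0.24. CD1A and CD1E did not share a course, so nearest does not mean alike. The distances of RAG1, RAG2 and PTCRA also hold counting error from few footprints. RAG2 was the member farthest from each of the 5 CD1 genes and from PTCRA, at 1.97 from CD1C, which was in turn the farthest from RAG1, RAG2 and DNTT.

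The 3 members with the highest mean level were also set against the 10236 other IDs averaging at least 4 CPM. The profile nearest to DNTT was that of ENSG00000196890.4, at 0.14, with 974 CPM at rest, 566 CPM at 5 h and 225 CPM at 12 h. Within 0.15 there were 3 IDs for DNTT, 264 for CD1A and 957 for CD1E. The farthest of the 3 stood at 0.145, just under that limit. By this measure a flat profile such as that of CD1E lies near many others, so these counts do not show that a profile is rare in shape. The nearest to CD1A, ENSG00000134186.12, differed by 0.05, and that to CD1E, ENSG00000110367.13, by 0.04. The files do not name these IDs.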

How the data were processed

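Ribosome footprints were profiled in 9 Jurkat libraries, 3 per group, grouped by the sample titles. The deposited table holds whole-number counts per Ensembl gene ID, not normalized. A second deposited table holds log2 values that the authors made from these counts: they equal log2 of count over 1 size factor per library, plus 1, within 5.03e-09. Per the submitters' processing notes, cutadapt 3.2, Bowtie, bedtools, RSEM and DESeq2 and build GRCh38.p13 were used; their roles, the annotation release, the strand setting and the treatment of multiple matches are not stated in these sources.

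All 9 libraries entered 1 fit with edgeR 4.0.16 in R 4.3.3: TMM scaling, filterByExpr (13920 IDs kept), quasi-likelihood test, Benjamini-Hochberg adjustment over all IDs and a call at an adjusted p under 0.05. The SE of a log2 fold change was derived from that test, as its absolute value over the square root of the F statistic. It is therefore approximate, above all for genes with few counts. The common biological coefficient of variation was 15.6%. The fitting script was tested on simulated data with changes placed in the 5 h group alone, so changes at 12 h were not covered. CPM use the TMM-scaled library, so changes in total footprints per cell are not seen. Poisson and binomial intervals are exact, at 95%. Profile likeness used log2 CPM with a prior count of 2. Sequences are RefSeq's (GRCh38.p14), matched by symbol.

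The members, lists and motifs were chosen with earlier results of these data known. All 9 members are named. By the naming rule, the 3 IDs nearest to each of 3 members were found, and the nearest of each is named. Alternatives were RLE and upper quartile scaling, DESeq2 1.42.0, no filter, a filter of 50 counts in 3 libraries, the 6 compared libraries alone, the replicate number as a block, limma 3.58.1 on the log2 table and each library left out. Wider pathway and marker lists, fixed by symbol, were not used, as no table here pairs symbols with the Ensembl IDs. No pairing by replicate number was seen: deviations from group means correlated at -0.06 to 0.09 between same-numbered libraries and at -0.11 to 0.09 between others. Whether same-numbered libraries were handled together cannot be told from these values.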

Additional observations from a re-analysis of the deposited data

Results flagged for a closer look

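CD1A lay on opposite sides of rest at the 2 times: every 5 h library lay below every resting library and every 12 h library above. Such a lack of overlap was found for 45.7% of all IDs at 5 h versus resting and for 45.8% at 12 h versus resting. How many IDs lay on opposite sides was not counted. Its mean was 131.8 CPM at 5 h and 196.0 CPM at 12 h, against 172.9 CPM at rest. In the direct comparison of 12 h with 5 h the log2 fold change was 0.57 ± 0.10 (SE), and CD1A was called higher. That call is no independent evidence, since the members were chosen with these values known. The 12 h value was not called against rest in the fit of all 9 libraries, with a log2 fold change of 0.18 ± 0.10 (SE).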

How the results depend on the processing

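Under 17 alternatives the 27 log2 fold changes of the 9 genes gave 459 values. None of the called ones changed sign, 450 moved by less than the spread between replicates, and 9 moved by more, 8 of them when 1 library was left out. Calls changed in 3 cases: PTCRA at 12 h versus 5 h was not called without 12 h replicate 1 or replicate 2, and CD1A was called higher at 12 h versus resting with at least 50 counts in 3 libraries, at 0.26. Leaving out 1 library, the members called numbered 7 at 5 h versus resting, 5 at 12 h versus resting and 4 to 5 at 12 h versus 5 h, and the IDs called 4000 to 4744, 4021 to 5021 and 2831 to 3766. With the replicate number as a block, 7, 5 and 5 members and 4644, 4689 and 3373 IDs were called, which changed no member's call; deviations of same-numbered libraries correlated at -0.06 to 0.09, so the numbers were not taken as pairs. Among all IDs called at 12 h versus resting, 2549 were higher and 2253 lower with at least 50 counts in 3 libraries, against 2204 and 2683 in the main fit. At 12 h versus 5 h 1794 were higher and 1742 lower with RLE scaling, and 1904 and 1775 with DESeq2, against 1620 and 1877. Counts of the wider lists were not run, since no table pairs their symbols with the IDs. Depth limits RAG1, RAG2 and PTCRA after activation, where single libraries held as few as 4 counts, and the 3 libraries per group limit every member.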
